A study of Bos taurus with 92 samples.

Results

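H19, IGF2R, PLAGL1, DLK1, MEST and CD81 are genes for which imprinting, the expression of 1 parental allele, is known in at least 1 mammal, and they were followed across single bovine blastocysts and donor cells. The 6 genes were chosen by symbol, as every probe annotated to one of them, and make up 6 of the 4452 named genes tested on the array. They are carried by 8 probes, 2 each for H19 and IGF2R and 1 each for the other genes. Each probe is a pair of spots, and all 8 passed the filter on missing values and had a value in all 46 samples. The samples were 14 blastocysts from artificial insemination (AI), 15 from fertilisation in vitro (IVF), 15 from nuclear transfer (NT, in which an oocyte receives the nucleus of a somatic cell) and 2 samples of donor cells for nuclear transfer. A common reference RNA shared each array with the sample, and every sample had 2 arrays with the dyes Cy5 and Cy3 swapped between them. The labels give no breed, sex, cell line, passage or embryo stage beyond blastocyst, do not say what tissue the donor cells or the reference RNA came from, and tie no NT embryo to a donor cell sample. The title of the series names nuclear reprogramming as its subject.

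Imprinted genes carry DNA methylation marks laid down in the egg or the sperm, which the early embryo keeps while much of the genome is demethylated. An embryo made by nuclear transfer takes its imprints from a somatic cell instead of from gametes. Several of these genes act on growth: H19 is a non-coding RNA expressed from the maternal copy and controlled together with the growth factor gene IGF2, and IGF2R is the receptor that removes IGF2 from the cell surface and carries lysosomal enzymes. PLAGL1 is a zinc finger transcription factor of a network of imprinted growth genes. DLK1 is a transmembrane protein related to Notch ligands, MEST is a hydrolase-fold protein of the endoplasmic reticulum, and CD81 is a tetraspanin, a membrane scaffold protein whose gene lies near the H19 and IGF2 cluster. Total transcript is measured here, from both alleles together.

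Values are log2 ratios of sample over reference, with each array's median set to 0, so that a level is relative to the typical spot of the same array. They compare samples for a given gene and set no order between genes. As deposited, the swapped arrays of a sample had correlations from -0.764 to -0.248, so that the ratio followed the dyes. Such correlations do not tell its direction, which is not stated. The ratio was read as Cy5 over Cy3, which is likely rather than certain and rests on marker genes. Under this reading 10 to 12 of 16 measured trophectoderm markers were higher in each kind of embryo than in donor cells, and 8 or 9 of 13 fibroblast markers were lower. The other way went 0, 0 and 1 trophectoderm markers and 1, 0 and 1 fibroblast markers in AI, IVF and NT embryos. Among all genes 18.2% to 20.1% were higher and 15% to 16.1% lower than in donor cells. Of the markers of the inner cell mass only SALL4, KLF4 and STAT3 were measured, so that this part of the blastocyst could hardly be checked. These 3 did not follow the trophectoderm markers: 0 were higher and 1, 2 and 2 lower in AI, IVF and NT embryos than in donor cells. The arrays of an embryo correlated at 0.548 to 0.764 after turning and those of a donor cell sample at 0.248 to 0.325, which makes the donor cell levels the less certain ones. Each sample is a whole embryo or a pool of cells, so that fewer cells of a type and less RNA per cell cannot be told apart. The labels give no batch or date, and nothing beyond the labels says that the embryos of a kind came from separate matings or cultures, so that p-values measure the spread between these samples.

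**Figure D1:**
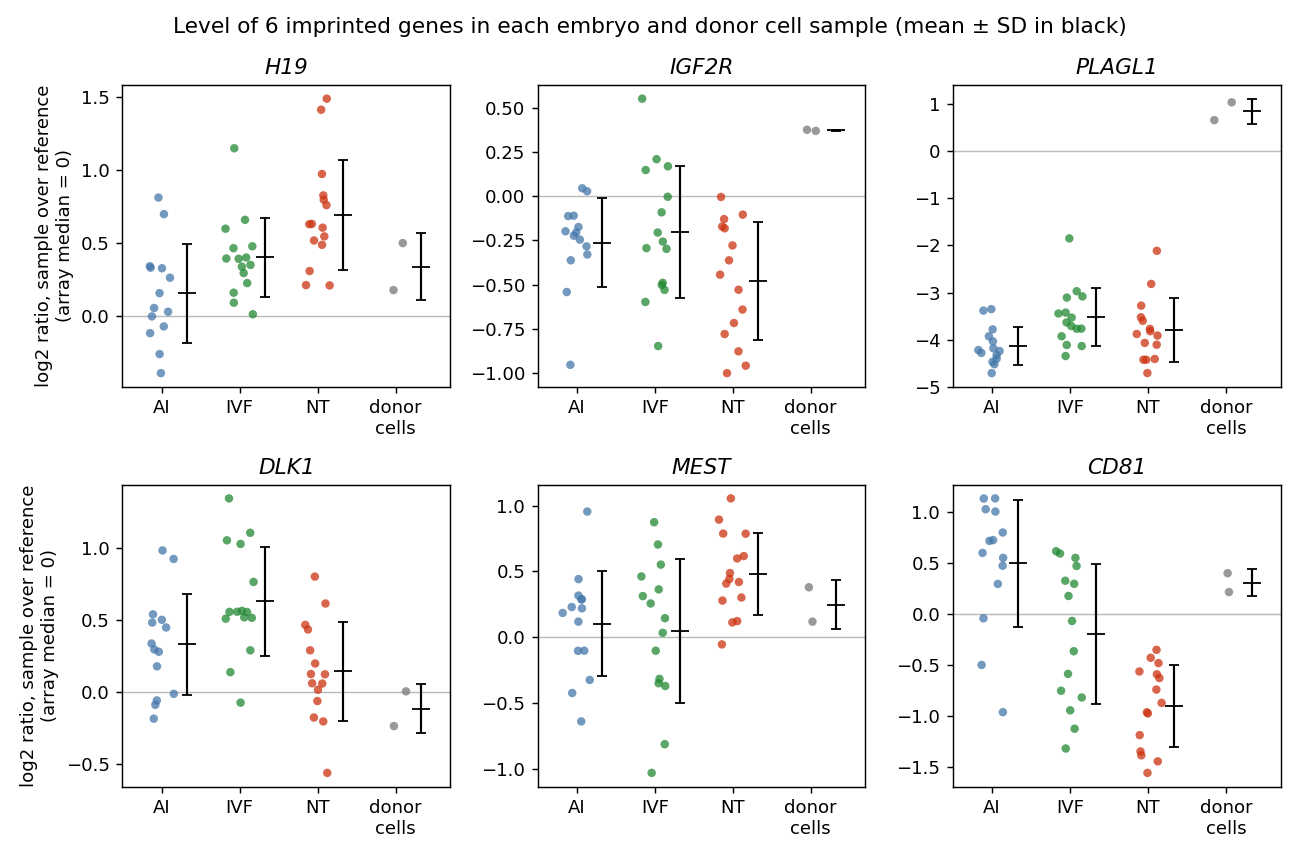
Level of each gene (log2 ratio of sample over reference, array median at 0, vertical axis) in every AI, IVF and NT embryo and donor cell sample (points), with mean and SD beside them in black; vertical scales differ between panels. PLAGL1 sits between -4.71 and -1.85 in all embryos and above 0.65 in both donor cell samples, and CD81 is at -0.35 or below in every NT embryo.

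NT embryos differed from AI embryos in 2 of the 6 genes: H19 was higher and CD81 lower. Over all genes tested 7.66% passed the same test, 3.62% with a higher and 4.04% with a lower level in NT embryos (limma, Benjamini-Hochberg adjusted p under 0.05). Against IVF embryos 3 of the 6 passed, MEST with a higher and DLK1 and CD81 with a lower level in NT embryos, where 23.6% of all genes passed, 13.5% higher and 10.1% lower. Between IVF and AI embryos 2 passed, PLAGL1 with a higher and CD81 with a lower level in IVF embryos, where the share of all genes was 29%, made up of 13.8% higher and 15.3% lower. The median difference of the 6 genes was 0.078 for NT minus AI, -0.27 for NT minus IVF and 0.15 for IVF minus AI, beside 0.026, -0.001 and 0.026 over all genes. These 3 comparisons share their embryos pairwise and are not independent of each other. CD81 was past the threshold in all 3 of them.

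Against the donor cells the gene that stood out was PLAGL1, lower in all 3 kinds of embryo. AI embryos passed for 2 of the 6 genes, PLAGL1 and IGF2R, both lower, while 36.2% of all genes passed, 20.1% higher and 16.1% lower. IVF embryos passed for PLAGL1, lower, and DLK1, higher, against a background of 33.7%, with 18.2% higher and 15.5% lower. NT embryos passed for PLAGL1, IGF2R and CD81, all lower, against 34.8%, with 19.8% higher and 15% lower. H19 and MEST passed in none of the comparisons with donor cells.

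H19 was higher in NT than in AI embryos. Levels ran from -0.40 to 0.81 with a median of 0.10 in AI embryos, from 0.010 to 1.15 with a median of 0.39 in IVF embryos and from 0.21 to 1.49 with a median of 0.63 in NT embryos. The ranges overlap, but every NT embryo lay above the AI mean. The donor cell samples, at 0.18 and 0.50, fell within the ranges of AI and IVF embryos. The lower of them lay just below the lowest NT embryo, and the other lay within the NT range. Mean levels were 0.15 ± 0.34 (SD, n = 14) in AI, 0.40 ± 0.27 (SD, n = 15) in IVF and 0.69 ± 0.38 (SD, n = 15) in NT embryos. NT embryos exceeded AI embryos by 0.54 ± 0.13 (SE, 1.45-fold, limma adjusted p = 0.00418, 15 of 15 NT embryos above the AI mean). The steps between neighbours in this order did not pass, with 0.25 ± 0.13 for IVF minus AI (adjusted p = 0.138) and 0.29 ± 0.12 for NT minus IVF (adjusted p = 0.078).

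Both H19 probes gave the higher level in NT than in AI embryos. The probe at spot 3101 differed by 0.70 ± 0.20 (limma fit to probes, adjusted p = 0.0258) and the probe at spot 4557 by 0.38 ± 0.11 (adjusted p = 0.0248), in a fit in which 7.19% of 8196 probes passed. For NT minus IVF only the second passed, at 0.345 ± 0.11 (adjusted p = 0.0167) beside 0.24 ± 0.20 (adjusted p = 0.421) for the first, where 22.5% of probes passed. The first is the noisier probe, with an SD of 0.71 over NT embryos beside 0.29, and lacked 10 of its 184 spot values. Against donor cells the probe at spot 4557 was higher in NT embryos by 0.70 ± 0.22 (adjusted p = 0.013), while the probe at spot 3101 gave 0.015 ± 0.41 (adjusted p = 0.987).

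The dye mattered for the level of H19 but not detectably for its differences. With the sample in Cy5 the ratio was lower than with the sample in Cy3 by 0.95 in AI, 0.90 in IVF and 0.71 in NT embryos on average. NT minus AI was 0.66 ± 0.17 (adjusted p = 0.00808) with the sample in Cy5 and 0.42 ± 0.18 (adjusted p = 0.167) with the sample in Cy3. The difference between these estimates was 0.235 ± 0.25 (limma, adjusted p = 0.599), in a test that 9.52% of 4399 genes passed. The 8 NT embryos labelled 2_ alone gave 0.46 (adjusted p = 0.0678).

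IGF2R, the receptor, was lower in AI and NT embryos than in donor cells, and did not pass in any comparison between embryos. Levels ran from -0.95 to 0.044 (median -0.215) in AI, from -0.85 to 0.55 (median -0.26) in IVF and from -1.0 to -0.005 (median -0.44) in NT embryos. The donor cell samples, at 0.37 both, lay above every AI and every NT embryo but below the highest IVF embryo. Mean levels were -0.26 ± 0.25 (SD, n = 14), -0.20 ± 0.37 (SD, n = 15) and -0.48 ± 0.33 (SD, n = 15) in AI, IVF and NT embryos. NT minus AI was -0.22 (95% interval -0.46 to 0.029, adjusted p = 0.284), NT minus IVF -0.28 (-0.52 to -0.035, adjusted p = 0.09) and IVF minus AI 0.060 (-0.19 to 0.305, adjusted p = 0.758). The difference from donor cells was -0.63 ± 0.25 in AI (adjusted p = 0.0407), -0.57 ± 0.25 in IVF (adjusted p = 0.0681) and -0.85 ± 0.25 in NT embryos (1.8-fold, adjusted p = 0.0054).

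The 2 IGF2R probes disagreed on the donor cells. The probe at spot 7553 averaged 0.995 in donor cells and was lower by 1.30 in AI (adjusted p = 0.00477), by 1.26 in IVF (adjusted p = 0.00674) and by 1.59 in NT embryos (adjusted p = 0.000602), where 32.2%, 30.3% and 30.5% of all probes passed. The probe at spot 16135 averaged -0.25 in donor cells and differed by 0.036, 0.11 and -0.11 (adjusted p = 0.954, 0.843 and 0.834). Between kinds of embryo the probes differed little: NT minus AI was -0.285 and -0.15, NT minus IVF -0.33 and -0.22 and IVF minus AI 0.047 and 0.073, none of them past the threshold. In that last comparison 25.6% of probes passed. The calls for AI and NT embryos against donor cells also ended without either donor cell sample (adjusted p = 0.188 and 0.2 for AI, 0.067 and 0.0691 for NT), with arrays as deposited (adjusted p = 0.104 and 0.229) and with the sample in Cy3 (adjusted p = 0.278 and 0.0847).

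PLAGL1, the transcription factor, had by far its highest level in the donor cells. The 2 donor cell samples were at 1.03 and 0.66, above the reference, and every embryo was below it. Levels ran from -4.71 to -3.35 (median -4.23) in AI, from -4.35 to -1.85 (median -3.63) in IVF and from -4.71 to -2.12 (median -3.88) in NT embryos. No embryo reached the donor cells, a gap without overlap that 31% of genes showed for AI, 27.1% for IVF and 30.9% for NT embryos in either direction. The difference from donor cells was -4.98 ± 0.42 in AI (31.5-fold lower, adjusted p = 1.16e-13, 14 of 14), -4.37 ± 0.42 in IVF (20.6-fold lower, adjusted p = 6.68e-12, 15 of 15) and -4.64 ± 0.42 in NT embryos (24.9-fold lower, adjusted p = 9.76e-13, 15 of 15). PLAGL1 held place 14, 20 and 19 from the lowest among the 4452 differences, and only 0.809%, 0.674% and 0.786% of genes were lower by 16-fold or more. These calls held in each of the 12, 11 and 13 alternatives run for them, from -5.62 to -3.82. Spot intensities were not held, so that whether the PLAGL1 spots of embryos were above background is unknown here.

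Among embryos PLAGL1 was higher after IVF than after AI. Mean levels were -4.13 ± 0.40 (SD, n = 14) in AI, -3.52 ± 0.61 (SD, n = 15) in IVF and -3.79 ± 0.67 (SD, n = 15) in NT embryos. IVF exceeded AI embryos by 0.61 ± 0.21 (1.53-fold, adjusted p = 0.0226, 13 of 15 IVF embryos above the AI mean), and the ranges overlapped. The call ended with quantile normalisation (0.325, adjusted p = 0.269), with arrays brought to the same median absolute deviation (0.45, adjusted p = 0.108), with arrays as deposited (0.64, adjusted p = 0.0694) and with the sample in Cy3 (0.505, adjusted p = 0.0749). NT embryos, between the others, differed from AI embryos by 0.34 (95% interval -0.078 to 0.76, adjusted p = 0.33) and from IVF embryos by -0.27 (-0.68 to 0.14, adjusted p = 0.362). The highest IVF embryo, at -1.85, and the highest NT embryo, at -2.12, stood above the next of their kind, at -2.97 and -2.82.

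DLK1, the Notch-related protein, was lower in NT than in IVF embryos. Levels ran from -0.18 to 0.98 (median 0.32) in AI, from -0.073 to 1.34 (median 0.555) in IVF and from -0.56 to 0.80 (median 0.12) in NT embryos. The donor cell samples, at -0.235 and 0.005, lay in the lower part of the NT range. Mean levels were 0.33 ± 0.35 (SD, n = 14) in AI, 0.63 ± 0.38 (SD, n = 15) in IVF and 0.145 ± 0.34 (SD, n = 15) in NT embryos. NT embryos fell below IVF embryos by 0.48 ± 0.13 (1.4-fold, adjusted p = 0.00527, 14 of 15 NT embryos below the IVF mean). With arrays as deposited the difference was -0.099 (adjusted p = 0.688) and with the sample in Cy3 -0.43 (adjusted p = 0.0589), so that the call ended in both. AI embryos lay between them, 0.30 below IVF embryos (adjusted p = 0.0898) and 0.18 above NT embryos (adjusted p = 0.435), neither past the threshold.

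Against donor cells DLK1 was higher in IVF embryos by 0.74 ± 0.27 (1.67-fold, adjusted p = 0.0289, 15 of 15). The difference was 0.44 ± 0.27 in AI (adjusted p = 0.22) and 0.26 ± 0.27 in NT embryos (adjusted p = 0.514). Without donor cell sample 8 the IVF value was 0.62 (adjusted p = 0.27) and without sample 9 0.86 (adjusted p = 0.0972), each resting on a single donor cell sample assumed to vary like the other groups. The IVF call also ended with the sample in Cy5 (0.43, adjusted p = 0.397) and as deposited (0.57, adjusted p = 0.312).

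MEST, the hydrolase-fold protein, was higher in NT than in IVF embryos. Levels ran from -0.64 to 0.955 (median 0.20) in AI, from -1.03 to 0.87 (median 0.145) in IVF and from -0.054 to 1.06 (median 0.44) in NT embryos. The low values of AI and IVF embryos were absent from NT embryos, of which only the lowest was below 0. The donor cell samples were at 0.38 and 0.12, inside all 3 ranges. Mean levels were 0.10 ± 0.40 (SD, n = 14), 0.049 ± 0.545 (SD, n = 15) and 0.48 ± 0.31 (SD, n = 15) in AI, IVF and NT embryos. NT embryos exceeded IVF embryos by 0.44 ± 0.155 (1.35-fold, adjusted p = 0.0352), and 14 of 15 lay above the mean of IVF embryos. NT minus AI was 0.38 ± 0.16 (adjusted p = 0.126, 14 of 15), and IVF minus AI was -0.055 (95% interval -0.37 to 0.26, adjusted p = 0.836).

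The MEST call was near the threshold. It ended with the sample in Cy5 (0.37, adjusted p = 0.175), with the 8 NT embryos labelled 2_ alone (0.34, adjusted p = 0.242) and with the 7 labelled 3_ alone (0.55, adjusted p = 0.0651). With the sample in Cy3 it was 0.50 ± 0.165 (adjusted p = 0.0255). As deposited both NT minus AI (0.79, adjusted p = 0.00415) and NT minus IVF (0.82, adjusted p = 0.00191) passed.

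CD81, the tetraspanin, had the largest differences between embryos of the 6 genes and formed an order of AI over IVF over NT. Levels ran from -0.96 to 1.14 (median 0.66) in AI, from -1.32 to 0.62 (median -0.065) in IVF and from -1.55 to -0.35 (median -0.87) in NT embryos. The donor cell samples, at 0.22 and 0.40, lay within the AI and IVF ranges and above every NT embryo. Only the AI embryos 17 and 15, at -0.96 and -0.50, reached into the NT range. Mean levels were 0.50 ± 0.62 (SD, n = 14) in AI, -0.19 ± 0.68 (SD, n = 15) in IVF and -0.90 ± 0.40 (SD, n = 15) in NT embryos.

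Each step of this order passed the test. CD81 fell in NT against AI embryos by 1.40 ± 0.21 (2.63-fold, adjusted p = 1.22e-05, 15 of 15 NT embryos below the AI mean), in NT against IVF embryos by 0.70 ± 0.205 (1.63-fold, adjusted p = 0.00896, 15 of 15) and in IVF against AI embryos by 0.69 ± 0.21 (1.62-fold, adjusted p = 0.00958, 12 of 15). NT embryos were also below donor cells by 1.21 ± 0.42 (2.31-fold, adjusted p = 0.0211, 15 of 15). AI embryos differed from donor cells by 0.19 (95% interval -0.66 to 1.04, adjusted p = 0.795) and IVF embryos by -0.50 (-1.35 to 0.345, adjusted p = 0.392). The NT minus AI call held in all 13 alternatives, from -1.66 to -0.98. NT minus IVF did not pass as deposited (-0.32, adjusted p = 0.303) or with the NT embryos labelled 3_ alone (-0.56, adjusted p = 0.15). IVF minus AI held in 11 of 13 alternatives and did not pass as deposited (-0.66, adjusted p = 0.0653) or with the sample in Cy3 (-0.35, adjusted p = 0.271).

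The size of the CD81 differences depended on the dye. The ratio with the sample in Cy5 minus that in Cy3 averaged 0.33 over AI embryos, -0.37 over IVF embryos, -0.20 over NT embryos and 1.19 over the donor cells. NT minus AI was -1.66 ± 0.22 (adjusted p = 9.51e-07) with the sample in Cy5 and -1.13 ± 0.225 (adjusted p = 0.0019) with the sample in Cy3, a difference of -0.525 ± 0.15 (limma, adjusted p = 0.0233). IVF minus AI was -1.04 ± 0.22 (adjusted p = 0.000326) against -0.35 ± 0.225 (adjusted p = 0.271), a difference of -0.69 ± 0.15 (adjusted p = 0.00117), where 17.7% of genes differed by dye. NT minus IVF was -0.62 ± 0.22 (adjusted p = 0.0391) and -0.79 ± 0.22 (adjusted p = 0.00794), which did not differ past the threshold (adjusted p = 0.872, with 0.0682% of genes past it). NT embryos were below AI and IVF embryos in both orientations.

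The comparisons of CD81 with donor cells differed even more by dye. NT minus donor cells was -1.90 ± 0.44 (adjusted p = 0.000708) with the sample in Cy5 and -0.51 ± 0.46 (adjusted p = 0.408) with the sample in Cy3. That is a difference of -1.39 ± 0.31 (adjusted p = 0.00168), and 28.4% of genes differed by dye there. For IVF minus donor cells the estimates differed by -1.56 ± 0.31 (adjusted p = 0.000694, 29% of genes), and for AI minus donor cells by -0.86 ± 0.31 (adjusted p = 0.0728, 6.09% of genes). PLAGL1 in NT minus donor cells was the other case past the threshold, with -5.31 ± 0.54 in Cy5 and -3.96 ± 0.43 in Cy3, a difference of -1.35 ± 0.50 (adjusted p = 0.0385). The call of CD81 in NT embryos against donor cells held in 8 of 13 alternatives. Besides the sample in Cy3, it ended without either donor cell sample (adjusted p = 0.108 and 0.184), as deposited (-0.996, adjusted p = 0.155) and with the NT embryos labelled 3_ alone (-1.07, adjusted p = 0.0739).

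**Figure D2:**
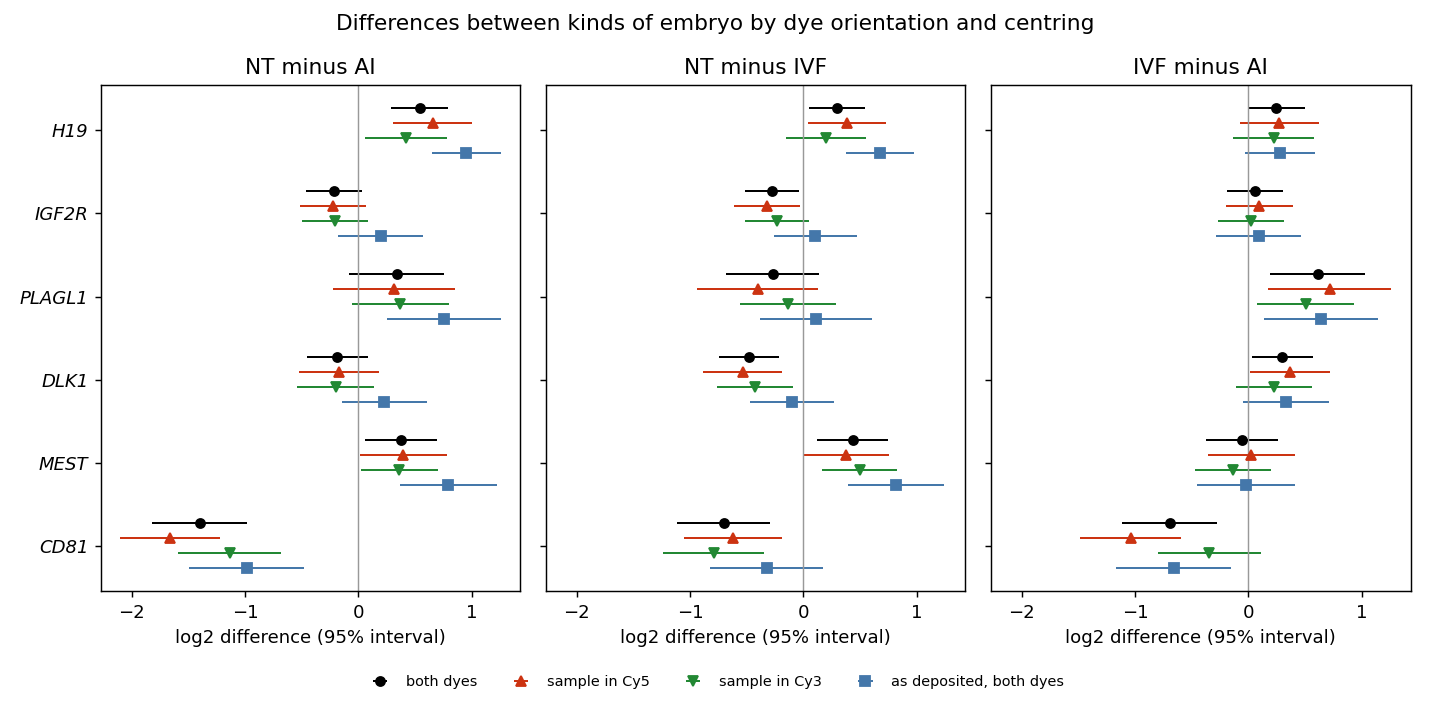
Difference between kinds of embryo (log2, horizontal axis, with 95% interval) for each gene from both dye orientations, from arrays with the sample in Cy5 or Cy3 alone, and from arrays as deposited without centring. CD81 lies left of 0 in every panel and setting, and the values as deposited lie to the right of the others in both NT panels.

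Centring set the direction of some of the smaller differences that involve NT embryos. As deposited the median sample-over-reference ratio was -0.305 ± 0.29 (SD) in AI, -0.27 ± 0.40 in IVF and 0.11 ± 0.19 in NT embryos, so that without centring the median gene was 0.44 higher in NT than in AI and 0.38 higher than in IVF embryos. The split of genes past the threshold then changed from 161 higher and 180 lower to 1938 higher (43.5% of genes) and 19 lower (0.427%) for NT minus AI, and from 599 and 450 to 1670 (37.5%) and 45 (1.01%) for NT minus IVF. As deposited H19, PLAGL1 and MEST passed with a higher and CD81 with a lower level against AI embryos, and H19 and MEST were higher in NT than in IVF embryos. The excess of H19 over AI embryos was then 0.95, and CD81 was lower by 0.98 (adjusted p = 0.00306). IGF2R and DLK1 (NT minus AI) and IGF2R and PLAGL1 (NT minus IVF), none of them past the threshold in either form, changed sign. What the difference in array medians reflects was not tested.

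Markers of the trophectoderm, the outer cell layer of the blastocyst, moved with the NT group as well. The mean level over the 16 measured markers ran from 1.57 to 2.22 in AI, from 1.34 to 2.14 in IVF and from 0.91 to 1.77 in NT embryos, with medians of 1.76, 1.87 and 1.46. Of the 16, NT embryos had 0 higher and 4 lower against AI embryos, and 1 was higher and 7 lower in NT than in IVF embryos, against 3 and 2 for IVF minus AI. In the 3 comparisons 25%, 50% and 31.2% of the markers passed, beside 7.66%, 23.6% and 29% of all genes. As deposited 3 were higher and 1 lower in NT than in AI embryos, where 43.5% of all genes were higher and 0.427% lower. Against IVF embryos 3 were then higher and 3 lower, beside 37.5% and 1.01% of all genes. CDX2 and IFNT, which define this layer in cattle, were not among the genes measured, while KRT8, KRT18 and GATA3 were. Fibroblast markers averaged between -2.33 and -1.61 in all embryos and 0.74 and 0.79 in the donor cell samples. Of the 4 measured cumulus and granulosa cell genes 0 differed between NT and either other kind, and 1 was higher in IVF than in AI embryos. Other marker sets moved between kinds too. Of the 3 inner cell mass markers 0 passed in NT minus AI. In NT minus IVF 2 of them were higher and 1 lower, and in IVF minus AI 1 was higher and 1 lower. Of 7 primitive endoderm markers 28.6%, 28.6% and 42.9% passed in NT minus AI, NT minus IVF and IVF minus AI. For the 13 fibroblast markers the shares were 7.69%, 30.8% and 23.1%. The part of cell composition in the differences of the 6 genes was not tested.

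None of the 6 genes differed between kinds of embryo in its embryo-to-embryo spread. The test compared absolute deviations from the mean of a kind (limma over 4452 genes, 44 embryos). It passed for 0 of 6 genes in each comparison, where 0.0449%, 0.0674% and 0% of all genes passed for NT minus AI, NT minus IVF and IVF minus AI. At an unadjusted p under 0.05 it took 0, 2 and 0 of the 6, against 7.5%, 7.55% and 9.32% of all genes. The 2 were CD81, with a smaller deviation in NT than in IVF embryos by 0.27 ± 0.11 (p = 0.0173, adjusted p = 0.524), and MEST, smaller by 0.20 ± 0.094 (p = 0.0392, adjusted p = 0.632).

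How much of that spread lies between embryos can be read against the error of the arrays, taken from the disagreement of an embryo's 2 arrays. For H19 the SD between embryos was 0.947 to 1.01 times the array error, so that its differences within a kind were no larger than the measurement error. For CD81 the ratio was 2.68 in AI, 4.12 in IVF and 1.87 in NT embryos, and for MEST 2.32, 1.75 and 1.69. PLAGL1 had ratios of 1.31, 2.25 and 1.57, IGF2R of 1.22, 1.68 and 1.64, and DLK1 of 2.15, 1.05 and 1.09. Over all genes the median ratio was 1.63 in AI and 1.52 in IVF and NT embryos. The SD of CD81 exceeded that of 73.9% of genes in AI embryos, of 83.8% in IVF embryos and of 48.6% in NT embryos.

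**Figure D3:**
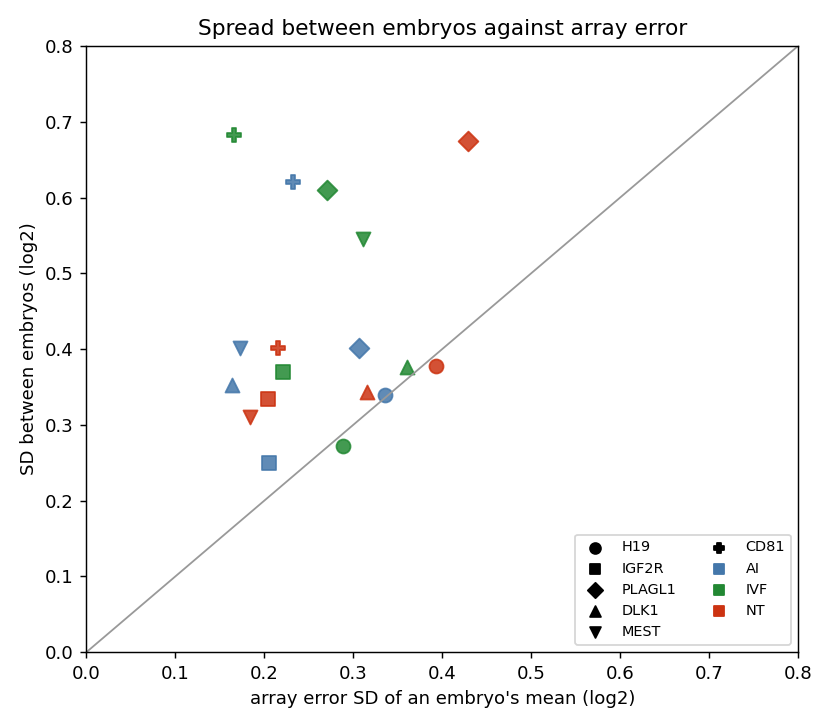
SD between embryos of a kind (log2, vertical axis) against the array error SD of an embryo's mean (log2, horizontal axis) for each gene (marker shape) in AI, IVF and NT embryos (colour), with the line of equality. H19 lies on or near the line in all 3 kinds, and CD81 in IVF embryos lies farthest above it, at 0.68 against 0.17.

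NT embryos carry labels that begin with 2_ (8 embryos) or 3_ (7 embryos), and 3 of the AI labels begin with H, with no meaning given. None of the 6 genes differed between 3_ and 2_ embryos, nor did any of all genes (0% of 4452, and 347 at an unadjusted p under 0.05). IGF2R came nearest, lower in 3_ embryos by 0.43 ± 0.16 (p = 0.0109, adjusted p = 0.544). Against IVF embryos the 3_ embryos alone were lower in IGF2R by 0.504 (adjusted p = 0.0123). Between AI embryos labelled H and the other AI embryos 0 of the 6 genes passed, also at an unadjusted p under 0.05, beside 0.674% of all genes.

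The array measured 16 other genes reported as imprinted in some mammal, out of 85 listed: BLCAP, COPG2, DCN, DLX5, GNAS, GRB10, IGF2, NAA60, NAP1L4, NAP1L5, PEG10, PEG3, PHLDA2, SGCE, UBE3A and WARS1. Among all genes 7.66% passed in NT minus AI, 23.6% in NT minus IVF and 29% in IVF minus AI. In NT against AI embryos 1 of the 16 rose and 0 fell, with a median of 0.18. The gene was NAA60, an acetyltransferase, at 0.58 ± 0.19 (adjusted p = 0.0495, 15 of 15), a call that ended in 7 of 13 alternatives. In NT against IVF embryos 1 rose and 2 fell, with a median of -0.11: the histone chaperone NAP1L4 rose by 0.79 ± 0.14 (adjusted p = 2.64e-05, 15 of 15), and the ubiquitin ligase UBE3A (-0.65 ± 0.145, adjusted p = 0.000724) and the proteoglycan DCN (-0.42 ± 0.15, adjusted p = 0.031) fell. In IVF against AI embryos 3 rose and 1 fell, with a median of 0.275: BLCAP rose by 0.81 ± 0.18, the tRNA ligase WARS1 by 0.51 ± 0.17 and the zinc finger gene PEG3 by 0.29 ± 0.11, and NAP1L4 fell by 0.89 ± 0.14 (adjusted p = 0.000728, 0.0227, 0.046 and 3.77e-06). As deposited 9 of the 16 were higher and 0 lower in NT than in AI embryos, where 43.5% of all genes were higher and 0.427% lower.

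IGF2, the growth factor paired with H19, did not pass in any comparison between embryos. Its level averaged -1.31 ± 0.52 (SD, n = 14) in AI, -1.07 ± 0.32 (SD, n = 15) in IVF and -0.92 ± 0.39 (SD, n = 15) in NT embryos, the same order as that of H19. NT minus AI was 0.39 (95% interval 0.085 to 0.70, adjusted p = 0.103, 13 of 15 NT embryos above the AI mean). Against donor cells 1 of the 16 was higher and 8 lower in AI embryos, 1 and 5 in IVF embryos and 1 and 6 in NT embryos, with COPG2, DCN, GRB10, SGCE and WARS1 lower in all 3 kinds. Of all genes 36.2%, 33.7% and 34.8% passed against donor cells in AI, IVF and NT embryos. DCN, which is also a fibroblast marker, fell by 6.34 in AI embryos, and SGCE, a sarcoglycan, fell by 3.73. NAP1L4 was the 1 gene higher in all 3 kinds, by 1.89 in AI, 1.00 in IVF and 1.79 in NT embryos.

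**Figure D4:**
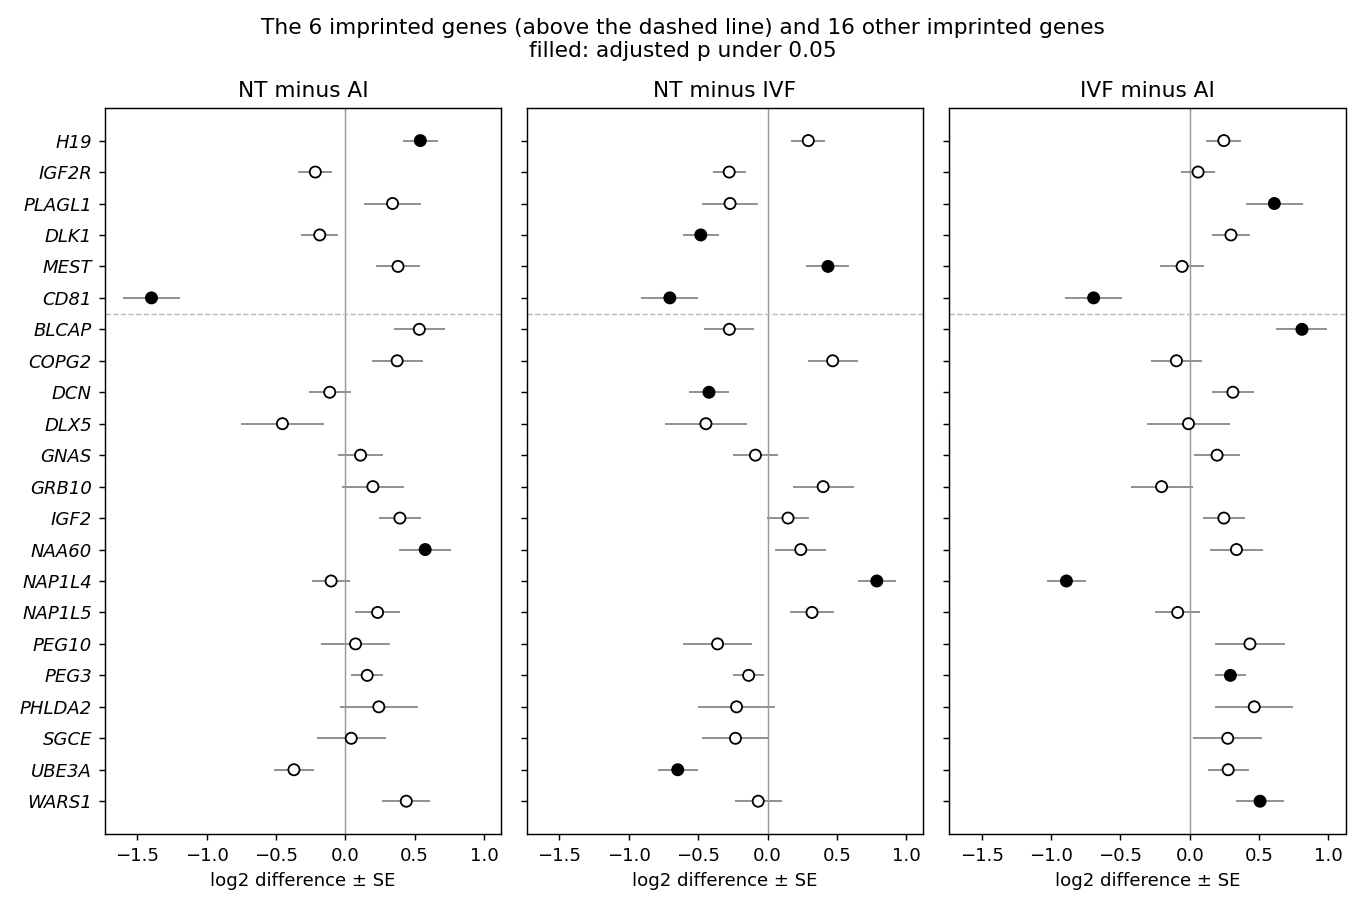
Difference between kinds of embryo (log2 ± SE, horizontal axis) for the 6 genes above the dashed line and the 16 other imprinted genes below it; filled points passed an adjusted p of 0.05. CD81 has the lowest value in the NT minus AI panel at -1.40, and NAP1L4 is filled on opposite sides of 0 in the other panels.

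Of 8 measured genes that set or keep imprints, 1 was higher and 1 lower with NT against AI embryos. With NT against IVF embryos 1 was higher and 2 lower, and with IVF against AI embryos 1 and 1. These were 25%, 37.5% and 25% of the 8, beside 7.66%, 23.6% and 29% of all genes. CTCF, which binds the control region between IGF2 and H19, was higher in NT (0.77 ± 0.14, adjusted p = 0.000194) and in IVF embryos (0.48 ± 0.14, adjusted p = 0.00664) than in AI embryos. DNMT3A, a de novo methyltransferase, was lower in IVF than in AI embryos by 1.40 ± 0.25 (adjusted p = 3.67e-05) and higher in NT than in IVF embryos by 1.025 ± 0.25 (adjusted p = 0.00184). TDG, a glycosylase of active demethylation, fell in NT embryos against AI (-0.76 ± 0.235, adjusted p = 0.0368) and IVF embryos (-0.78 ± 0.23, adjusted p = 0.0101), and MBD3, a chromatin repressor subunit, fell in NT against IVF embryos (-0.50 ± 0.18, adjusted p = 0.0323). TDG and MBD3 lost their calls as deposited.

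Among 13 genes of the insulin-like growth factor axis 0 passed between NT and AI embryos, where 7.66% of all genes passed. In NT against IVF and in IVF against AI embryos 15.4% of them passed each, beside 23.6% and 29% of all genes. The binding proteins IGFBP3 (-0.40 ± 0.135) and IGFBP4 (-0.41 ± 0.13) were lower in IVF than in AI embryos, IGFBP3 was higher in NT embryos than after IVF (0.39 ± 0.13), and the protease HTRA1 was lower (-0.35 ± 0.13), with adjusted p from 0.0149 to 0.0368. HTRA1 turned to 0.031 as deposited. Of 32 genes of the mannose 6-phosphate pathway and of lysosomal hydrolases, the cargo of IGF2R, 2 rose and 1 fell in NT against AI, 4 rose and 5 fell in NT against IVF and 6 rose and 4 fell in IVF against AI embryos. These were 9.38%, 28.1% and 31.2% of the 32 genes, near the 7.66%, 23.6% and 29% of all genes. AGA, a lysosomal amidase, was higher in NT than in AI (1.02 ± 0.22) and IVF embryos (1.095 ± 0.22). The cathepsins went apart in NT against AI embryos, with CTSD higher (0.55 ± 0.13) and CTSH lower (-0.59 ± 0.15). MANBA (0.94 ± 0.18) rose and the sorting adaptor GGA1 (-0.40 ± 0.091) and the protease LGMN (-0.58 ± 0.14) fell in NT against IVF embryos.

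Of 15 tetraspanins and partners, the family of CD81, 1 rose and 2 fell in NT against AI embryos, 3 and 3 in NT against IVF embryos and 3 and 2 in IVF against AI embryos. These were 20%, 40% and 33.3% of the 15 genes, beside 7.66%, 23.6% and 29% of all genes. TSPAN33 was the largest of the changes in NT against AI embryos (-0.63 ± 0.12, adjusted p = 0.000447), smaller than that of CD81. TSPAN12 was lower in NT than in IVF embryos (-1.69 ± 0.37, adjusted p = 0.000526) and higher in IVF than in AI embryos (1.56 ± 0.37, adjusted p = 0.00131). CD9, a close relative of CD81, was lower in IVF than in AI embryos (-0.35 ± 0.13) and higher in NT than in IVF embryos (0.43 ± 0.12). TSPAN17 (0.53 ± 0.13) and TSPAN31 (0.51 ± 0.14) rose and the integrin ITGB1 fell (-0.41 ± 0.145) in NT against IVF embryos, with adjusted p from 0.0017 to 0.035.

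Of 13 Notch pathway genes 0 passed between NT and AI embryos, 4 were higher and 0 lower with NT against IVF embryos, and 1 was higher and 3 lower with IVF against AI embryos. These were 0%, 30.8% and 30.8% of the 13 genes, beside 7.66%, 23.6% and 29% of all genes. HES1, a target of Notch, was higher in NT than in IVF embryos by 1.05 ± 0.11 (adjusted p = 3.07e-09, 15 of 15) and lower in IVF than in AI embryos by 1.12 ± 0.11 (adjusted p = 4.72e-10, 15 of 15), while DLK1 had the opposite sign in both, past the threshold in the first. The receptor NOTCH3 (0.45 ± 0.086), the secretase subunit PSENEN (0.37 ± 0.087) and the coactivator MAML2 (0.615 ± 0.23) also rose in NT against IVF embryos, and SPEN, a corepressor, rose in IVF against AI embryos (0.73 ± 0.18). As deposited 7 of the 13 were higher in NT than in AI embryos, against 43.5% of all genes. Of the PLAG family and the relatives of MEST the array measured ABHD5, ABHD6 and ABHD12, all hydrolase-fold proteins like MEST. Of these 3, ABHD12 alone passed between kinds of embryo, lower in IVF than in AI embryos by 0.33 ± 0.125 (adjusted p = 0.0441). In that comparison 29% of all genes passed.

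No shared pattern of the 6 genes was seen over the 44 embryos. After the mean of each kind was removed, the 15 pairwise correlations ran from -0.414 (MEST and CD81) to 0.214 (DLK1 and CD81), and H19 and IGF2R stood at -0.411. The SD of H19 between embryos was only 0.947 to 1.01 times the array error. For DLK1 it was 1.05 and 1.09 times that error in IVF and NT embryos. With so much error, low correlations of these genes cannot tell whether a pattern was shared. The genes most like each of the 6 were ranked by r over the 44 embryos with the kinds left as they were. Differences between kinds therefore add to r. The second value of each pair is r after the mean of each kind was removed. For H19 the genes were MYADM (0.658 and 0.495), PSPH (0.641 and 0.421) and VPS53 (0.64 and 0.543), and for IGF2R MPV17L2 (0.668 and 0.606), PMM1 (0.63 and 0.588) and SRSF2 (0.595 and 0.523). PLAGL1 was most like FLCN (0.545 and 0.422), WDR17 (0.527 and 0.45) and RNF111 (0.526 and 0.409), and DLK1 most like ARID1A (0.773 and 0.687), SIRT7 (0.675 and 0.624) and KARS1 (0.66 and 0.5). MEST was most like HNRNPDL (0.751 and 0.748), POMGNT1 (0.711 and 0.682) and POLR2B (0.709 and 0.691). For CD81 they were RPS10 (0.766 and 0.532) and RPS7 (0.699 and 0.409), both proteins of the small ribosomal subunit, and LOC783349 (0.698 and 0.593). The first values are the highest of 4442 correlations each, over points that share arrays, reference and centring, and are given as a description.

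In the order of genes in the reference assembly ARS-UCD2.0, H19 lies on the same chromosome as IGF2, with 3 annotated genes between them, and as CD81, with 9 between them. With NT set against AI embryos H19 was higher and CD81 lower, and IGF2, the measured gene between them, did not pass (0.39 ± 0.15, adjusted p = 0.103). On the far side of H19 from CD81, LSP1 (0.62 ± 0.20, adjusted p = 0.0461) and CTSD (0.55 ± 0.13, adjusted p = 0.00538), both within 10 genes of H19, were higher. NAP1L4, within 10 genes of CD81, rose in NT against IVF embryos, where CD81 fell. Both NAP1L4 and CD81 were lower in IVF than in AI embryos. The gene next to PLAGL1, SF3B5, a splicing factor subunit, was lower by 0.78 ± 0.13 in IVF than in AI embryos (adjusted p = 9.56e-06), where PLAGL1 was higher. Of 20 measured genes within 10 places of one of the 6, chosen after the data had been seen, 6 passed in NT minus AI, 4 in NT minus IVF and 6 in IVF minus AI, where 7.66%, 23.6% and 29% of all genes passed.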

How the data were processed

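Expression was measured on custom 2-colour cDNA arrays in 46 samples, 92 arrays in all. Per the labels, RNA was amplified linearly and coupled to Cy5 or Cy3, with the reference in the other dye. The authors deposited 1 log2 ratio per spot; scanner, background correction, normalisation and ratio direction are not given in the sources used here. A fill of 16.61 (log2 of 1e+05) in 2657 cells was set to missing, and 4.39% of cells were empty. The sign of arrays that carried the sample in Cy3 was reversed, each array was centred on its median, and spots, arrays of a sample and probes of a gene were averaged (16416 spots, 8208 probes; 8196 probes and 4452 genes had values in at least 50% of each kind of embryo and in both donor cell samples). Genes were named from the platform annotation (5598 probes with 1 symbol, 95 with several, 2515 with none), and all 6 symbols were found by Entrez ID in the reference gene table.

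All samples entered a model of group means in limma 3.58.1 (lmFit, eBayes; R 4.3.3), 2-sided, with Benjamini-Hochberg adjustment over all genes and a threshold of 0.05; all adjusted p-values are from limma. Array error is the SD of an embryo's Cy5 minus Cy3 ratio over a kind, divided by 2. The script was tested on simulated data. The median correlation of duplicate spots was 0.793 (0.720 to 0.914); precision is limited by the number of arrays. The 6 genes and the gene lists were chosen with earlier results of these data known. Of each list up to 6 members of smallest p past the threshold between embryos are named, all of the imprinted list, and the 3 genes most alike each of the 6 over at least 40 embryos. Alternatives were no centring, quantile normalisation, scaling to a common median absolute deviation, a single dye, both dyes required, single arrays with the sample as a random block, 1 probe per gene, 80% of values, embryos only, embryos by label prefix, each donor cell sample left out and a replicate block. Chosen after seeing the data were the fit of dye differences, single probes, prefix comparisons, the embryos of the block without it, likeness under alternatives and neighbours. AI and IVF embryos share 7 embryo numbers, whose deviations correlated between -0.0696 and 0.0896, so the numbers were not taken to pair them. No sequence of a probe or gene was used here.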

Additional observations from a re-analysis of the deposited data

Results flagged for a closer look

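In 5 cases the difference between kinds of sample depended on which dye the sample carried (limma fit to each sample's ratio in Cy5 minus that in Cy3, 4399 genes). CD81 accounts for 4: the estimate with the sample in Cy5 minus that in Cy3 was -0.525 for NT minus AI (adjusted p = 0.0233), -0.694 for IVF minus AI (adjusted p = 0.00117), -1.558 for IVF minus donor cells (adjusted p = 0.000694) and -1.389 for NT minus donor cells (adjusted p = 0.00168). Of all genes 9.52%, 17.7%, 29% and 28.4% passed this test in these 4 comparisons. PLAGL1 was the other case, at -1.35 for NT minus donor cells (adjusted p = 0.0385). Its gaps for AI and IVF minus donor cells, -1.294 and -1.083, were similar but not past the threshold (adjusted p = 0.0926 and 0.0987). CD81 kept its direction in both orientations between embryos, and IVF minus donor cells changed sign, from -1.28 with the sample in Cy5 to 0.275 in Cy3. The 2 donor cell samples agreed: their CD81 ratio was 0.75 and 1.06 in Cy5 and -0.31 and -0.26 in Cy3.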

How the results depend on the processing

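Over the alternatives the 6 genes kept direction and side of the threshold in 389 cases, lost a call in 32, gained one in 7 and changed sign in 16, none of these a call. For the named genes of the lists the counts were 495, 133, 0 and 1 (HTRA1, NT minus IVF, 0.031 as deposited). CD81 in NT minus AI and PLAGL1 against donor cells kept their calls throughout. Of the 6 genes 2, 3 and 2 passed in NT minus AI, NT minus IVF and IVF minus AI and 2, 2 and 3 against donor cells (AI, IVF, NT). Beside these, 7.66%, 23.6% and 29% of all 4452 genes passed between embryos and 36.2%, 33.7% and 34.8% against donor cells. As deposited 4 passed in NT minus AI, 0 in IVF minus AI and 1 in each comparison with donor cells. The counts over all 4452 genes were then 1957, 703, and 1148, 1010 and 1178 against donor cells (AI, IVF, NT). With the sample in Cy3 alone 1 passed in NT minus AI, 0 in IVF minus AI and 1 for AI and for NT against donor cells. In these 4 comparisons 216, 1123, 1491 and 1566 of all genes passed. NT embryos labelled 2_ alone gave 1 in NT minus AI, and quantile normalisation or a common median absolute deviation 1 in IVF minus AI. All genes past the threshold were 170 in the first and 1228 and 1229 in the others. Without donor cell sample 8 or 9 the count was 1 in each comparison with them, with 1 donor cell sample left that was assumed to vary like the other groups.

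Of all genes, 341 passed in NT minus AI, against 1957 as deposited, 550 with the sample in Cy5, 216 in Cy3 and 170 or 168 with NT embryos labelled 2_ or 3_ alone. NT minus IVF went from 1049 to 1715 as deposited and 678 with 3_ embryos, and IVF minus AI from 1293 to 703 as deposited. Leaving out a donor cell sample took the counts from 1612, 1500 and 1550 to 1068 to 1075 for AI, 959 to 983 for IVF and 1017 to 1020 for NT embryos. The 7 embryo numbers shared by AI and IVF embryos did not pair them; with the replicate block IVF minus AI gave 424 genes and 2 of the 6, and the same embryos without the block 669.

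Signs changed as deposited for IGF2R (0.197) and DLK1 (0.229) in NT minus AI, IGF2R (0.106) and PLAGL1 (0.112) in NT minus IVF, CD81 in AI minus donor cells (-0.013) and H19 in IVF minus donor cells (-0.107). With the sample in Cy5 they changed for MEST in IVF minus AI (0.026) and against donor cells for CD81 in AI (-0.243), H19 in IVF (-0.023), and DLK1 (-0.109) and MEST (-0.04) in NT embryos. With the sample in Cy3 they changed against donor cells for MEST in AI (0.147) and IVF (0.011) and CD81 in IVF embryos (0.275). H19 in IVF minus donor cells was also negative with 1 probe per gene, which is the probe at spot 3101 (-0.229), and ran from -0.099 to 0.224 without donor cell sample 8 or 9. The other single probes with a changed sign were H19 at spot 4557 in AI (0.317) and IGF2R at spot 16135 in AI (0.036) and IVF embryos (0.109) against donor cells. The causes were not tested beyond the fewer samples of the reduced fits.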
